A study of Mus musculus with 6 samples.

Results

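The myosin light chain genes MYL1, MYL2, MYL3, MYL4, MYL6, MYL6B, MYL7, MYL9 and MYLPF, with the kinase gene MYLK2, were examined in C2C12 myotubes that had received a control siRNA or an siRNA against DJ-1. Members were found by name: every probe of the array whose listed gene was one of these 10, in any letter case, was taken, and each probe was treated on its own. This gave 10 genes with 17 probes, out of 30854 gene names and 45281 probes on the array.

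C2C12 is an established line of murine muscle precursors whose cells leave the cell cycle and merge into myotubes once serum is lowered. The Scramble group (3 arrays) was transfected with a nontargeting siRNA and the siDJ-1 group (3 arrays) with an siRNA to DJ-1, both at 60 nM. After 48 h the medium of both groups was changed to induce differentiation, and RNA was taken from myotubes after 4 days in it. Both groups rest on 1 cell line and on bulk RNA, and no source used here says whether the 3 samples of a group were separate cultures, so the p-values below measure only the spread between samples.

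Each myosin motor carries heavy chains with the ATPase head and a pair of smaller chains wrapped around the neck behind it, an essential and a regulatory light chain. Skeletal, cardiac and nonmuscle myosins use different light chain genes, and developing muscle switches between them. Phosphorylation of the regulatory chain by a calmodulin-dependent kinase, encoded in skeletal muscle by Mylk2, increases the force of skeletal muscle at low calcium, and a phosphatase built on protein phosphatase 1 reverses it.

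The arrays had median signals between 152 and 167 intensity units, and the number of probes with a detection p-value under 0.05 was 16985, 17399 and 18179 in Scramble and 18704, 18857 and 18408 in siDJ-1. More probes were thus detected on each siDJ-1 array than on any Scramble array, and the part of this in the results below was not tested. The target gene Park7, which encodes DJ-1, had deposited signals of 12019.5, 10900.4 and 12251 in Scramble and 5935, 6586 and 4234 in siDJ-1. No siDJ-1 array reached the Scramble range, with 44.7% of the Scramble level left after normalization (log2 fold change -1.16, standard error 0.14, adjusted p = 0.00344, limma).

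Of the 17 member probes, 14 were detected on at least 3 of the 6 arrays and were tested, and 13 of them were detected on all 6. The probes of Myl3 and Myl7 and 1 of the 4 Mylk2 probes did not reach this level and have no fold change. After DJ-1 knockdown 9 of the 14 tested probes fell at an adjusted p under 0.05, and over all 17890 tested probes 13.6% were called lower. Of the 13 probes detected on all 6 arrays 8 fell, and the ninth call is a dim Mylk2 probe, ILMN_1257739, that was detected in Scramble only and was not called with no filter. These 9 probes belonged to 6 of the 8 genes tested. No member probe was called higher by limma (0 at an unadjusted p under 0.05 as well), against 16.5% of all tested probes. The median log2 fold change of the 14 probes was -0.47, or 72.3% of the Scramble level, and that of all tested probes was 0.05. With a common 75th percentile and no background correction the median of the 14 was -0.29.

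For 13 of the 14 probes, every siDJ-1 array lay below every Scramble array after normalization, which was so for 22% of all tested probes. The 13 include Mylk2 probe ILMN_1257739, which passed the filter through the Scramble group alone, so its separation is not interpreted. An exact permutation test gave a 2-sided p of 0.1 for each of the 13, the smallest value that 3 arrays against 3 allow. All 14 fitted changes were negative with quantile normalization of the 6 arrays, while 45.8% of all tested probes were negative. When the arrays were instead brought to a common 75th percentile, 3 of the 14 became positive with background correction (1 Myl1 probe and both Mylpf probes) and 1 without it (the same Myl1 probe), and the number called lower with background correction was 5. When 1 array was left out in turn, 4 probes were called lower without Scramble replicate 2, without Scramble replicate 3, without siDJ-1 replicate 1 or without siDJ-1 replicate 3. Of all tested probes, 5387 were called with 6 arrays, 2444 without siDJ-1 replicate 1 and 2612 without siDJ-1 replicate 3. RNA was taken from whole cultures, so fewer myotubes and less light chain RNA in each myotube cannot be told apart.

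**Figure D1:**
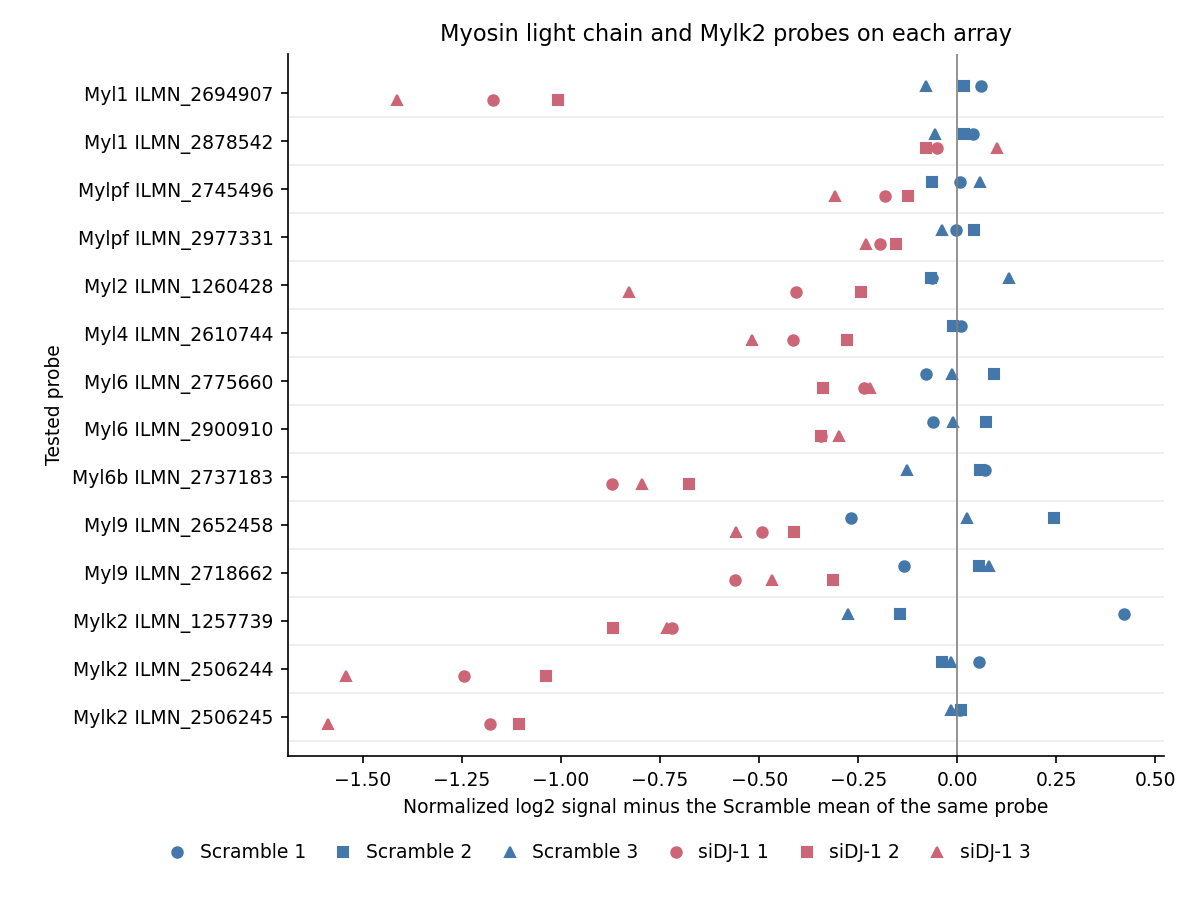
Normalized log2 signal of each of the 14 tested probes (one line each) on each of the 6 arrays, drawn as the difference from the mean of the 3 Scramble arrays of the same probe; blue symbols are Scramble arrays, red symbols siDJ-1 arrays, and the shape gives the replicate number. Red symbols lie to the left of all blue symbols for 13 probes and mix with them only for Myl1 probe ILMN_2878542.

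The fast skeletal chains come first, since they are the partners of the adult fast heavy chains. Myl1 encodes the essential light chain of fast muscle, and its locus is known to make a long and a short protein, MLC1f and MLC3f, from separate start sites. Myl1 probe ILMN_2694907 had deposited signals of 8960.2, 8927 and 7922.5 in Scramble and 3979, 4921 and 3011 in siDJ-1. All 3 knockdown arrays were far under the Scramble arrays, and the Scramble arrays were close to each other. The log2 fold change was -1.20 (standard error 0.13, 95% confidence interval -1.50 to -0.89, adjusted p = 0.00309, limma), which leaves 43.6% of the Scramble level. It was called lower under all 13 alternative settings, with values between -1.29 and -1.06.

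The other Myl1 probe, ILMN_2878542, behaved differently. Its deposited signals were 33833, 37336.5 and 31314.5 in Scramble and 35781, 38082 and 38538 in siDJ-1. Here the groups overlapped, before and after normalization. The log2 fold change was -0.01 (standard error 0.10, 95% confidence interval -0.24 to 0.22, adjusted p = 0.947, limma), and with background correction and the 75th percentile it was 0.25 (adjusted p = 0.197, limma). It lay between -0.07 and 0.02 as 1 array was left out, and was above 0 without Scramble replicate 1, siDJ-1 replicate 1 or siDJ-1 replicate 2.

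The difference between both Myl1 probes was also formed within each array, which removes a shift shared by all probes but no effect of scaling that depends on signal strength. The log2 fold change of ILMN_2878542 was higher than that of ILMN_2694907 by 1.19 (standard error 0.17), and the 3 siDJ-1 differences did not overlap the 3 Scramble differences (exact permutation test, p = 0.1, the smallest possible; 0.35 after adjustment over the 7 pairs of probes of 1 gene that were compared). Under the 13 alternatives this gap lay between 1.02 and 1.31. The array's file assigns both probes to versions of the same Myl1 transcript record, and which Myl1 transcripts each probe binds was not analysed here. Whether the scanner read signals as strong as those of ILMN_2878542 in proportion to their RNA was not tested either, so a true difference between the probes and a limit of the scale cannot be told apart. A fall of Myl1 was thus called on 1 of its 2 probes.

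**Figure D2:**
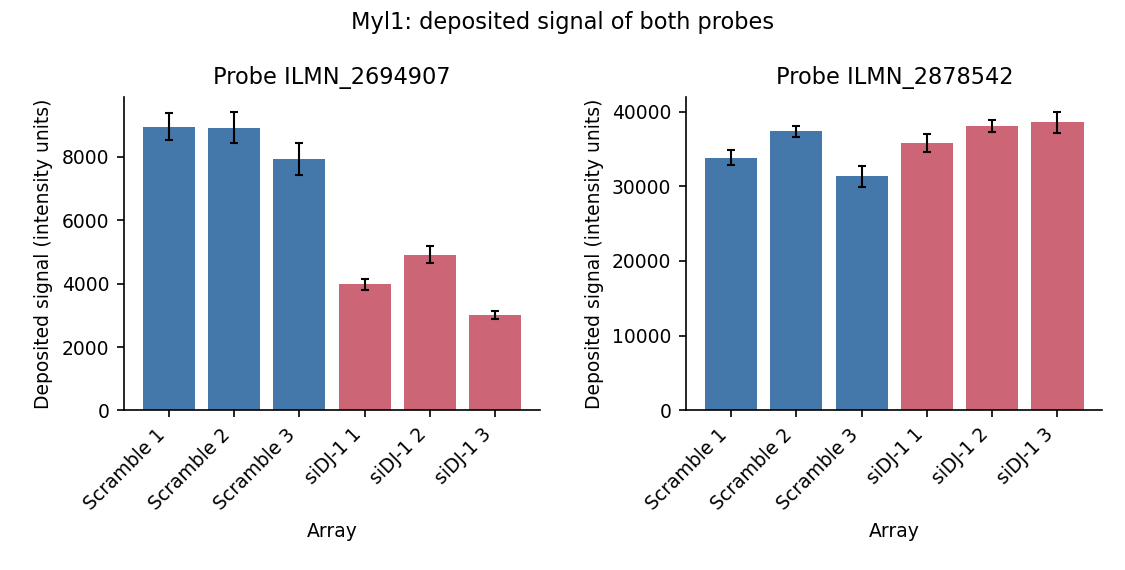
Deposited signal (intensity units, axes from 0) of the Myl1 probes ILMN_2694907 (left) and ILMN_2878542 (right) on the 3 Scramble arrays (blue) and the 3 siDJ-1 arrays (red), with the standard error over beads as error bars. Left, the siDJ-1 bars reach 3011 to 4921 and the Scramble bars 7922.5 to 8960.2; right, the Scramble bars reach 31314.5 to 37336.5 and the siDJ-1 bars 35781 to 38538, which overlap.

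Mylpf encodes the phosphorylatable regulatory light chain of fast skeletal muscle, the main substrate of the Mylk2 kinase in fast fibres. On probe ILMN_2977331 the normalized log2 signal was 15.38, 15.42 and 15.35 in Scramble and 15.19, 15.23 and 15.15 in siDJ-1. On probe ILMN_2745496 it was 15.31, 15.25 and 15.37 against 15.13, 15.18 and 15.00. The knockdown arrays were lower by a small margin on both. In deposited signal the groups overlapped on both probes, from 36363 to 43549 in siDJ-1 and from 38086 to 45237 in Scramble for ILMN_2977331. The log2 fold changes were -0.19 (95% confidence interval -0.41 to 0.02, adjusted p = 0.145, limma) and -0.21 (95% confidence interval -0.44 to 0.03, adjusted p = 0.161, limma). Neither passed the test, a 75th percentile shift with background correction gave 0.05 for each, and a trend in the prior variance called both lower (adjusted p = 0.00886 and 0.0148, limma).

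These settings differ for strong signals in general. The 348 tested probes with a mean log2 signal of 13.66 or above, among them 6 member probes of Myl1, Mylpf, Myl4 and Myl6, had a median log2 fold change of 0.03 with quantile normalization and 0.28 with background correction and a common 75th percentile, while that of all tested probes moved only from 0.05 to 0.07. Array maxima were between 44329.6 and 52359.5 units, the Mylpf signals reached 45237, and whether the scanner read such bright beads in proportion to their RNA was not tested.

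**Figure D3:**
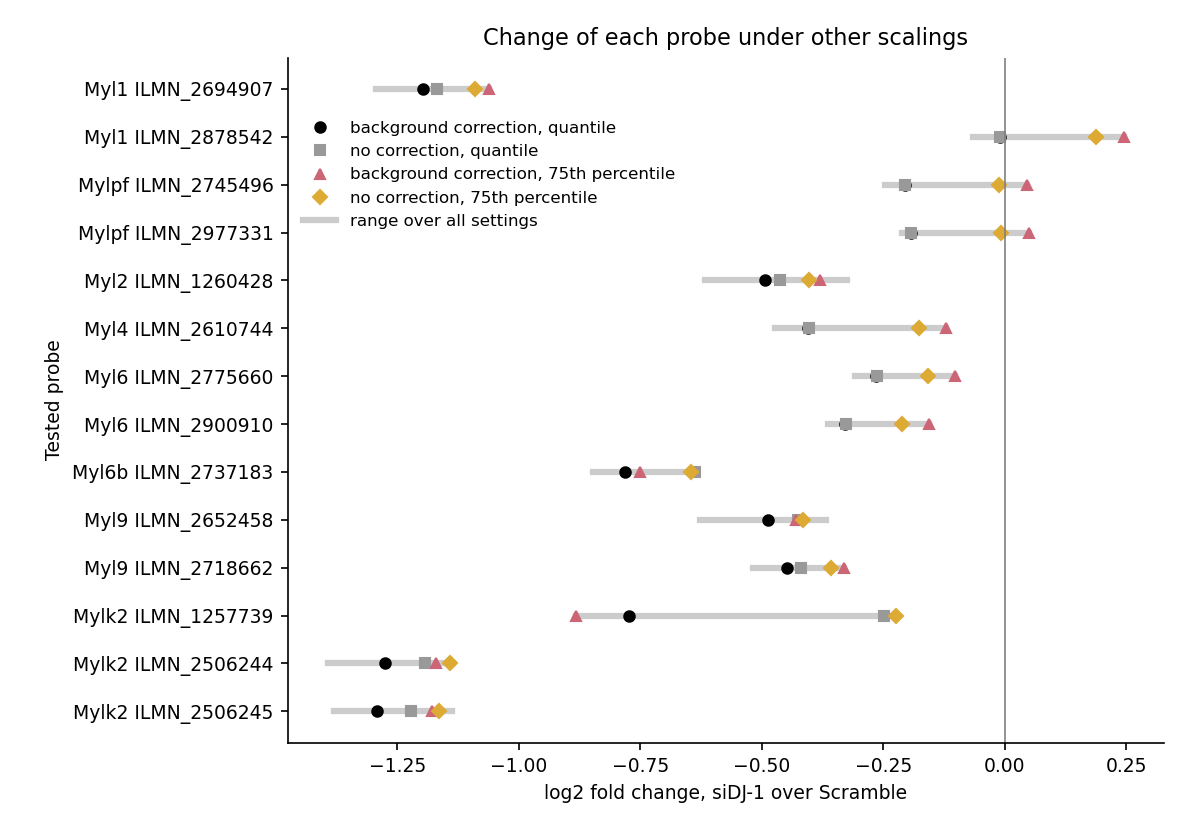
Log2 fold change, siDJ-1 over Scramble, of each tested member probe under the 4 combinations of background correction and scaling (symbols), with the range over these and the other alternatives as a grey bar. With a common 75th percentile and background correction, Myl1 probe ILMN_2878542 and both Mylpf probes lie to the right of 0 (0.25, 0.05 and 0.05), while Myl1 probe ILMN_2694907, Myl6b and the Mylk2 probes ILMN_2506245 and ILMN_2506244 lie below -0.63 in every setting.

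The sequence before the start of these genes was read as a description of these genes. RefSeq starts (GRCm38.p6) were given for 9 of the 10 members, with 11 starts in all, since Myl2 and Myl6 had 2 each. In the 250 bases before each start, on both strands, matches were sought to the E-box CANNTG, the core that MyoD family factors bind, to the MEF2 box of the MEF2 factors, and to the CArG box of serum response factor, the last pair by their usual consensus. The windows of Myl1 and Mylpf, 5′ to 3′ on the strand of the gene with matches in capitals, are these.
Myl1 (chr1:66945057-66945306, minus strand): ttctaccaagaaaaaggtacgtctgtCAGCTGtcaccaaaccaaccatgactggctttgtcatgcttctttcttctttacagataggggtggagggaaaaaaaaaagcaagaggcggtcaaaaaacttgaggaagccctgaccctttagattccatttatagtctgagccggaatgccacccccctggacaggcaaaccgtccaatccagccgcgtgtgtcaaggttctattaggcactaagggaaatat
Mylpf (chr7:127211358-127211607, plus strand): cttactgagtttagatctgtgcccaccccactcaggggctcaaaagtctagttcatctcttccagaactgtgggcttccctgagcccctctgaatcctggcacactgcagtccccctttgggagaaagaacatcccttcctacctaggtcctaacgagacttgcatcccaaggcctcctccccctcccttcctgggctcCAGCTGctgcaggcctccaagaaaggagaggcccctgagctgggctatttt
Each window held 1 match to the E-box, which began 224 bases before the listed start of Myl1 and 51 before that of Mylpf. Both listed starts lay inside the span that RefSeq annotates for the gene, so other starts of these genes were not looked at. An E-box match is common, present in 66.2% of the 32851 RefSeq promoter windows of this length, and it was found in 8 of the 11 member windows.

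Slow muscle and the heart's ventricles share a pair of light chains, the regulatory chain Myl2 and the essential chain Myl3. Myl2 had normalized log2 signals of 11.20, 11.20 and 11.40 in Scramble and 10.86, 11.02 and 10.44 in siDJ-1. The siDJ-1 arrays were all lower but spread widely, with replicate 3 far below the others. The log2 fold change of -0.49 (standard error 0.17, 95% confidence interval -0.89 to -0.09) did not pass the test (adjusted p = 0.0657, limma), and it passed under 5 of the 13 alternatives. Myl3 was not detected on any array, with deposited signals between 129 and 161 and detection p-values between 0.167 and 0.951.

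The embryonic and atrial chains were represented by Myl4, the essential chain of embryonic skeletal muscle and of the atria, and Myl7, the atrial regulatory chain. Myl4 had normalized log2 signals of 15.13, 15.11 and 15.13 in Scramble and 14.71, 14.84 and 14.60 in siDJ-1. After normalization the Scramble arrays were almost identical and the siDJ-1 arrays all lower. In deposited signal the groups overlapped, with 33006, 36207 and 32424 in Scramble and 28058, 34387 and 24921 in siDJ-1. Myl4 fell, with a fitted change of -0.40 (95% confidence interval -0.64 to -0.16, adjusted p = 0.0264, limma). With a common 75th percentile the change was -0.12 with background correction (adjusted p = 0.431, limma) and no longer passed. The call was also lost with a common 75th percentile and no background correction, with the replicate block (adjusted p = 0.0593, limma), with no filter (adjusted p = 0.0612, limma), and without Scramble replicate 2 or 3 or without siDJ-1 replicate 1 or 3 (log2 fold changes of -0.47 to -0.35 over the 6 settings that leave out an array). Myl7 was not detected on any array, with signals of 128 to 152.

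The chains shared with nonmuscle and smooth muscle myosin are the essential chains Myl6 and Myl6b and the regulatory chain Myl9. All 5 tested probes of these 3 genes were lower in siDJ-1, and 4 passed the test. Over all tested probes 45.8% had a negative change and 13.6% were called lower. Under the alternatives the number called lower ran from 1 to 5. It was 1 with background correction and a common 75th percentile. It was also 1 without Scramble replicate 2 or 3 and without siDJ-1 replicate 1 or 3. The clearest was Myl6b, which is also expressed in slow skeletal muscle. Its deposited signals were 983, 978.5 and 826 in Scramble and 552, 668 and 507 in siDJ-1. The lowest Scramble array lay above the highest siDJ-1 array, and the log2 fold change was -0.78 (standard error 0.11, 95% confidence interval -1.04 to -0.52, adjusted p = 0.00461, limma). The level left was 58.2% of Scramble, and the call held under all 13 alternatives (-0.85 to -0.64). A further probe, listed under BC037527, a name that RefSeq joins to Myl6b, lay outside the name rule. It was detected on 2 siDJ-1 arrays and on 0 Scramble arrays and was not tested. Its signals, near background, ran the other way, with 156.6, 159.2 and 131.1 in Scramble and 166.8, 196.5 and 171.8 in siDJ-1.

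Myl9, the regulatory chain of smooth muscle and nonmuscle myosin, had 2 probes. Probe ILMN_2718662 gave deposited signals of 2183, 2463 and 2374.5 in Scramble and 1653, 2127 and 1549 in siDJ-1, and probe ILMN_2652458 gave 1053, 1417 and 1176.5 against 878, 1014 and 747. On each the siDJ-1 arrays were below the Scramble arrays, narrowly so between siDJ-1 replicate 2 and Scramble replicate 1. The log2 fold changes were -0.45 (95% confidence interval -0.72 to -0.18, adjusted p = 0.0283, limma) and -0.49 (95% confidence interval -0.84 to -0.14, adjusted p = 0.0462, limma). Both calls were lost without Scramble replicate 2 or 3 and without siDJ-1 replicate 1 or 3, and that of ILMN_2652458 also without siDJ-1 replicate 2, with log2 fold changes of -0.52 to -0.39 and of -0.63 to -0.37 as 1 array was left out. Both were also lost with no filter and with background correction and a common 75th percentile (-0.33 and -0.43), and that of ILMN_2652458 with the replicate block (adjusted p = 0.0574, limma).

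Myl6, the essential chain found in most nonmuscle cells, had normalized log2 signals of 13.77, 13.90 and 13.82 in Scramble and 13.48, 13.48 and 13.53 in siDJ-1 on probe ILMN_2900910. All siDJ-1 arrays were lower, and the fitted change was -0.33 (95% confidence interval -0.55 to -0.11, adjusted p = 0.0365, limma). On probe ILMN_2775660 the values were 13.90, 14.07 and 13.97 against 13.74, 13.64 and 13.76, and the change of -0.27 did not pass (adjusted p = 0.0841, limma). The probes differed by 0.06 (exact permutation test, p = 0.2), so the probes were not told apart although only 1 was called. The call on ILMN_2900910 was lost when any array but Scramble replicate 1 was left out, with values between -0.36 and -0.29, and with the replicate block (adjusted p = 0.08, limma), no filter (adjusted p = 0.085, limma) and a common 75th percentile. With a common 75th percentile and background correction both were smaller, -0.16 and -0.10, and neither passed.

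Myl6 and Myl9 carry a CArG box match in the window before a listed start, and Myl6b an E-box match. The windows of Myl9 and Myl6b are printed because every tested probe of these genes was called lower, with matches in capitals.
Myl9 (chr2:156775214-156775463, plus strand): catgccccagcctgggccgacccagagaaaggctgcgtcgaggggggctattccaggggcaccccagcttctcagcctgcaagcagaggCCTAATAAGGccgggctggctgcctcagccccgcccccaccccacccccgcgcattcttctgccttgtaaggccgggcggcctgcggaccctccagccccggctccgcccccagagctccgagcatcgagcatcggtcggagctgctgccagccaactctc
Myl6b (chr10:128498686-128498935, minus strand): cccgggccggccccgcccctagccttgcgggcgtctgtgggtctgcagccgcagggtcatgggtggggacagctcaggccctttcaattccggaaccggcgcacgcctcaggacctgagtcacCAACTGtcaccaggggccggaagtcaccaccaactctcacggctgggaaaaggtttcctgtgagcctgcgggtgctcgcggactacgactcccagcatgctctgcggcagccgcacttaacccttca
The CArG match of Myl9 began 161 bases before the start, which lies inside the annotated span of the gene, and the E-box match of Myl6b 127 bases before it. A CArG match was present in 4 of the 11 member windows, those of Myl3, Myl7, Myl9 and 1 start of Myl6, and in 1.47% of all RefSeq windows of this length. A MEF2 box match was present in 0 of the 11 and in 2.92% of all. Genes with and without a CArG match were found among members that passed the test, and 2 of the 4 genes with one (Myl3 and Myl7) were not detected here.

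Mylk2, the skeletal muscle kinase that phosphorylates Mylpf, showed the largest fitted falls of the members. Probe ILMN_2506245 had deposited signals of 3963.5, 4030.2 and 3766 in Scramble and 1838, 2116 and 1234 in siDJ-1. Probe ILMN_2506244 had 3417, 3178.5 and 3102 against 1463, 1821 and 1059. On both the siDJ-1 arrays were clearly separate from the Scramble arrays, with replicate 3 the lowest. The log2 fold changes were -1.29 (standard error 0.14, 95% confidence interval -1.63 to -0.95, adjusted p = 0.00317, limma) and -1.28 (standard error 0.14, 95% confidence interval -1.62 to -0.93, adjusted p = 0.00317, limma). These leave 40.9% and 41.3% of the Scramble level, and both were called lower under all 13 alternatives.

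The remaining Mylk2 probes were near background. Probe ILMN_1257739 gave 220.3, 197 and 175 in Scramble and 166, 166 and 156 in siDJ-1. It was detected on all 3 Scramble arrays and on 0 siDJ-1 arrays, so it passed the filter through the Scramble group alone, and with no filter it was not called (adjusted p = 0.0537, limma). Its size depends on the background correction, with a log2 change of -0.77 with correction and, without it, -0.25 with quantile normalization and -0.22 with a common 75th percentile. The call was lost in the last of these and without siDJ-1 replicate 1, 2 or 3 (-0.80 to -0.70), so no conclusion is drawn from this probe. Probe ILMN_3129011 was not detected on any array.

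**Figure D4:**
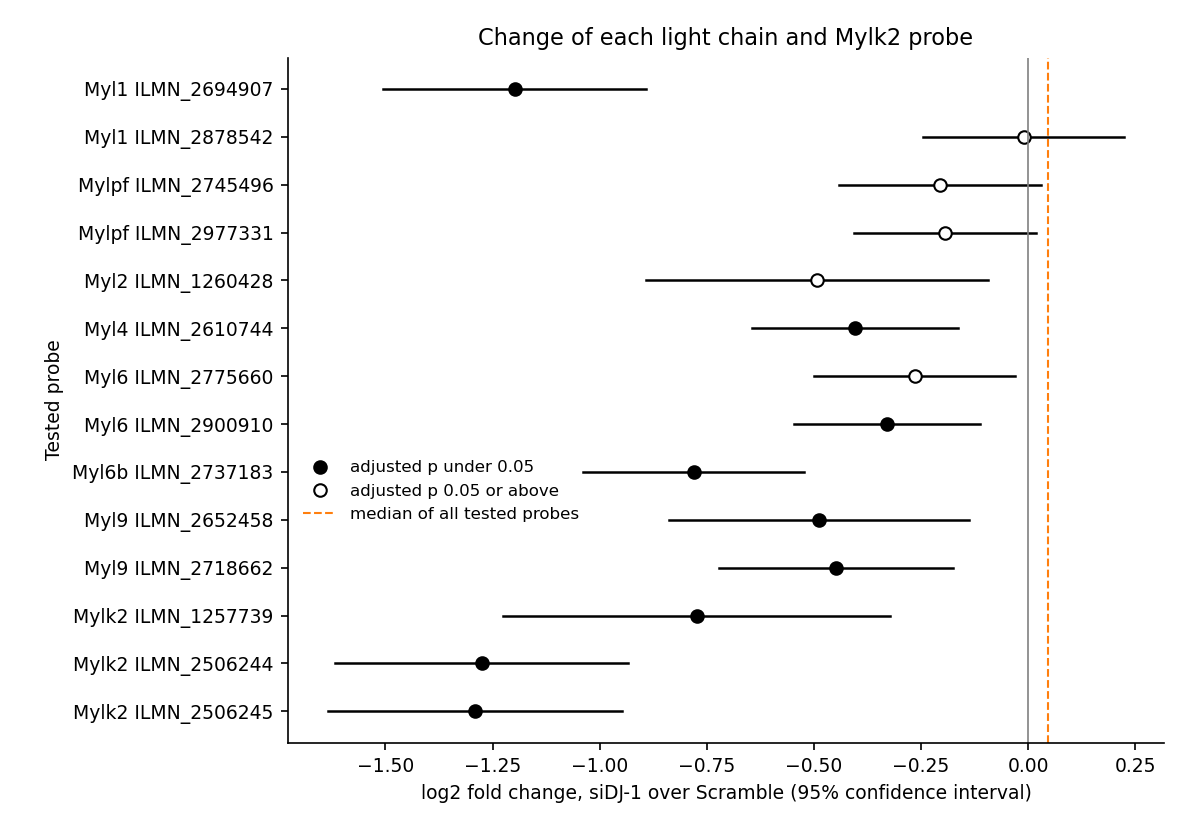
Log2 fold change, siDJ-1 over Scramble, of the 14 tested member probes (points) with 95% confidence intervals (bars); filled points passed the test and open points did not, and the dashed line is the median of all tested probes, 0.05. The Mylk2 probes ILMN_2506245 and ILMN_2506244 and Myl1 probe ILMN_2694907 lie at -1.29, -1.28 and -1.20, and the Mylpf probes at -0.19 and -0.21; Mylk2 probe ILMN_1257739 was not detected in siDJ-1, and with a common 75th percentile and background correction the Mylpf probes and Myl1 probe ILMN_2878542 were positive.

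Genes with several tested probes gave 7 pairs of probes. In the 6 pairs other than that of Myl1, the groups overlapped. The differences in log2 fold change were 0.06 for Myl6, 0.04 for Myl9, 0.01 for Mylpf and -0.02 for the Mylk2 probes ILMN_2506245 and ILMN_2506244. Against Mylk2 probe ILMN_1257739, which was not detected in siDJ-1, the differences ran from -0.97 to -0.29 under the alternatives and are not interpreted. For member probes detected on all arrays, the standard error over beads was between 1.62% and 6.51% of the signal.

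Within the siDJ-1 group, replicate 3 was the lowest array for 8 of the 14 tested probes (57.1%), and over all tested probes it was the lowest for 35.8%. Replicate 2 was the highest for 10 of the 14, and for 35.8% of all tested probes. Park7 had its lowest signal on replicate 3 and its highest on replicate 2 as well. With 3 arrays no relation between the Park7 level and the light chains was tested.

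By likeness over the 6 arrays, the probes closest to Mylk2 probe ILMN_2506245 among 14702 probes of other genes detected on all arrays were those of Ndst1, Nnmt, Slc7a6, Tcap and Il7, with Pearson correlations between 0.998 and 1.00. Ndst1 fell by 0.48, Nnmt by 0.92, Slc7a6 by 0.72, Tcap by 1.33 and Il7 by 1.16 on the log2 scale. Tcap encodes a protein of the sarcomere's Z-disc. Among members, Myl1 probe ILMN_2694907 had a correlation of 0.996 and Myl1 probe ILMN_2878542 one of -0.12 with the same Mylk2 probe. The 6 arrays fall in 2 groups, so these values mostly follow the gap between the groups and are given as a description.

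The rest of the regulatory system of the light chains did not move as 1 block. Of the other light chain genes, 4 probes were tested, with a median log2 fold change of 0.22. By limma 2 were called higher and 0 lower (1 lower at an unadjusted p under 0.05), against 16.5% and 13.6% of all tested probes. Both calls were of Myl12b, a nonmuscle regulatory chain. Its probe ILMN_2953531 gave 6693, 5918 and 6054 in Scramble and 10162, 11899 and 9409 in siDJ-1, with no overlap, and rose by 0.73 (95% confidence interval 0.49 to 0.96, adjusted p = 0.0045, limma). The second called probe rose by 0.33, and the third was at 0.11 (adjusted p = 0.381, limma). Only 1 higher call was left with no filter, with the replicate block and when any array but Scramble replicate 1 was left out, and the median lay between 0.11 (no filter) and 0.36 (background correction and a common 75th percentile). Myl12a, its close relative, was at -0.37 (adjusted p = 0.071, limma), and 1 probe of this list was called lower under 4 of the 13 alternatives.

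Mylk, the kinase of smooth muscle and nonmuscle cells, was called lower on its 3 tested probes. Mylk probe ILMN_1218347 had signals of 1853, 1644 and 1437 in Scramble and 744, 934 and 574 in siDJ-1. The groups were well apart, and the probe fell by 1.28 (standard error 0.15, adjusted p = 0.00344, limma); the other Mylk probes had changes of -1.14 (ILMN_1219471) and -1.09 (ILMN_2662602). Without background correction and with quantile normalization these were -0.69 and -0.53, and the call on ILMN_2662602 was lost with no filter (adjusted p = 0.051, limma), with the replicate block (adjusted p = 0.062, limma), without siDJ-1 replicate 1 (-1.14) and without siDJ-1 replicate 3 (-0.89). Calmodulin probes were not called, with Calm3 at -0.05 and Calm2 at -0.07 and 0.28. The first 2 of these turned positive with a common 75th percentile, and Calm3 also without Scramble replicate 1. For the last, Calm2 probe ILMN_2775885, every siDJ-1 array lay above every Scramble array (adjusted p = 0.0809, limma), and it was called higher under 5 of the 13 alternatives, which were both settings without background correction, the 75th percentile with it, the stricter filter and the trend in the prior variance. Myosin phosphatase genes, which remove the phosphate from regulatory chains, had 3 of 8 tested probes higher and 1 lower, against 16.5% and 13.6% of all tested probes. The median of the 8 was 0.18. The catalytic subunit gene Ppp1cb rose by 0.54 on each of its 2 tested probes, the targeting subunit gene Ppp1r12a by 0.56 on 1 of 2, and the inhibitor gene Ppp1r14b fell by 0.51. All 4 of these calls were lost without siDJ-1 replicate 1, without siDJ-1 replicate 3 and with no filter, and the lower call also without Scramble replicate 2. Only 1 higher call was left without Scramble replicate 3, without siDJ-1 replicate 2 and with the replicate block, and the median lay between 0.07 and 0.34 under the alternatives.

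The light chains bind heavy chains, and the sarcomeric heavy chain genes had 7 of 10 tested probes called lower and 0 higher (limma; 1 higher at an unadjusted p under 0.05), with a median log2 fold change of -1.07. Over all tested probes 13.6% were called lower and 16.5% higher. The 7 probes called lower belonged to 4 of the 7 genes tested. Of these probes, Myh2 was detected on 3 Scramble arrays and 0 siDJ-1 arrays and Myh4 on 3 and 1. Both thus passed the filter through Scramble, and with the stricter filter 5 of 7 probes were called lower. Without Scramble replicate 1 or without Scramble replicate 3, 5 of 9 were called lower, and Myh6 was called higher without Scramble replicate 3 (0.95) and with a common 75th percentile and no background correction (0.30). Myh1, an adult fast chain, had deposited signals of 10163.6, 7723 and 9370 in Scramble and 2145.5, 2991 and 1475 in siDJ-1 on probe ILMN_2865744. No siDJ-1 array came near a Scramble array, and the change was -2.19 (adjusted p = 0.00284, limma), with -1.93 for the other Myh1 probe. The perinatal chain gene Myh8 fell on 3 probes, with changes of -1.11, -1.01 and -1.03. The call at -1.01, on probe ILMN_2978038, was lost with no filter (adjusted p = 0.0549, limma) and with the replicate block (adjusted p = 0.053, limma). That call was also lost without Scramble replicate 1 (-0.97), without Scramble replicate 3 (-0.95) and without siDJ-1 replicate 1 (-1.05). The embryonic chain gene Myh3 was at -0.17 and did not pass (adjusted p = 0.29, limma). With a common 75th percentile Myh3 was at 0.05 with background correction and at -0.01 without it. Of the nonmuscle and smooth muscle heavy chains, 3 probes were tested, 0 were called in either direction (limma, and 0 where p was left unadjusted, at the same 0.05), and Myh9 probe ILMN_2672626 was at 0.06. The median of the 3 was 0.06, and it ran from -0.06 without Scramble replicate 3 to 0.20 with background correction and a common 75th percentile.

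**Figure D5:**
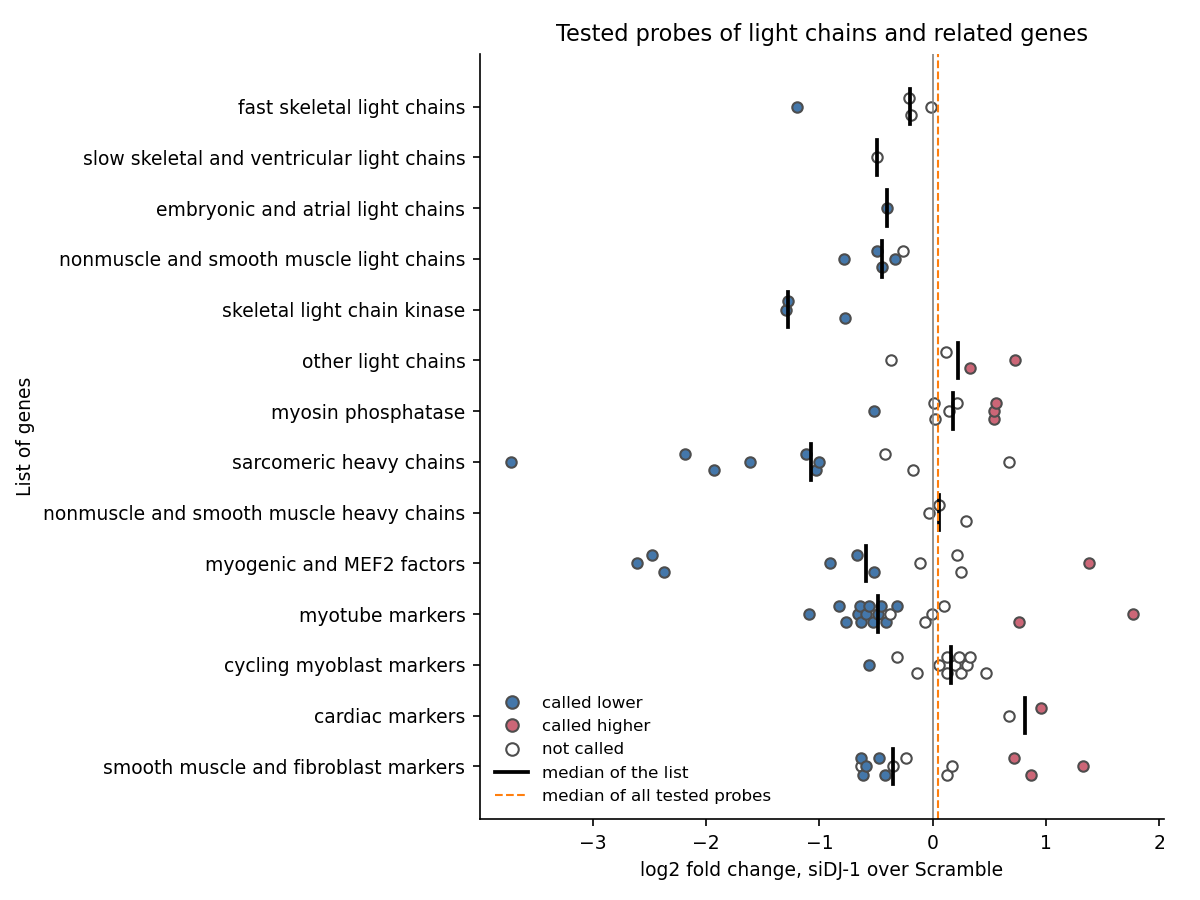
Log2 fold change, siDJ-1 over Scramble, of every tested probe (points) in lists of light chain genes and related genes (one line per list); blue points were called lower, red points higher and open points were not called, black bars are list medians and the dashed line is the median of all tested probes, 0.05. Sarcomeric heavy chains have a median of -1.07 and fast skeletal light chains one of -0.20, which was 0.05 with background correction and a common 75th percentile, while cycling myoblast markers have 0.16.

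Factors that drive muscle genes were read beside the light chains. Of 10 tested probes of the MyoD family and MEF2 factors, 6 were called lower and 1 higher, against 13.6% and 16.5% of all tested probes. Their median was -0.59, and 7 of the 10 were detected on all 6 arrays. All 4 tested probes of Mef2c are among those called lower, and by gene 3 of 6 were called lower and 1 higher. Without background correction the median was -0.20 with quantile normalization and -0.18 with a common 75th percentile, with 4 called lower in each. The stricter filter kept 6 probes, of which 4 were called lower, and the median was -1.64. With no filter it was -0.25, and 4 probes were also called lower without Scramble replicate 3, siDJ-1 replicate 2 or siDJ-1 replicate 3. Mef2c probe ILMN_2732465 had signals of 4227, 4114 and 4058 in Scramble and 872.5, 1331 and 630.0 in siDJ-1, and Myod1 had 1219, 1306 and 1084 against 674, 766 and 622. Each showed a wide gap between the groups. The changes were -2.37 (adjusted p = 0.00277, limma) and -0.90 (adjusted p = 0.00317, limma). Myogenin, the factor that starts myotube formation, was not called on either probe (Myog, 0.22 and -0.11). The higher call was of Mef2b, on a probe detected on 1 Scramble array and 3 siDJ-1 arrays. The part of these factors in the light chain results was not tested.

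Markers of differentiated myotubes were strongly detected in both groups, with summed signals of 161172, 170985 and 154745 in Scramble and 137586, 157589 and 116966 in siDJ-1. Acta1 was the strongest of them. Of 19 tested probes 13 were called lower and 2 higher, against 13.6% and 16.5% of all tested probes. The median log2 fold change was -0.48, close to the -0.47 of the light chain probes, and Ttn supplied 7 of the 19 probes. By gene, 8 of 10 had a probe called lower and 1 had a probe called higher. The number of probes called lower was 8 without Scramble replicate 3, 7 without siDJ-1 replicate 1 and 4 without siDJ-1 replicate 3. The number of probes called higher was 1 with no filter, with the stricter filter and when any array but Scramble replicate 3 was left out. Tnnc2 (troponin C of fast muscle), Casq1 (calsequestrin of fast muscle) and Des (desmin) fell, with changes of -0.82, -1.09 and -0.56. Acta1 at -0.01 and Ckm at -0.07 did not pass. Both higher calls were of Ttn, whose probes were called in both directions, and 1 of the 2 was on a probe detected on 1 Scramble array. Neb was not detected. The part of these markers in the light chain results was not tested.

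Markers of dividing myoblasts had summed signals of 10592, 11320 and 9880 in Scramble and 10206, 12136 and 9206 in siDJ-1, with overlapping groups, and their strongest gene was Cdk1. Of 12 tested probes 1 was called lower (Ccnb1) and 0 higher by limma (4 higher at an unadjusted p under 0.05), with a median of 0.16. Over all tested probes 13.6% were called lower and 16.5% higher. The Ccnb1 call was lost without siDJ-1 replicate 1 or 3, the median was 0.10 without Scramble replicate 1, and 2 or 3 probes were called higher under 5 alternatives. Cardiac markers were near background: only 2 of 13 probes were tested, Nppa, Nppb, Tnni3, Ryr2, Nkx2-5 and Hand2 were not detected, and 1 probe, of Sln, detected on 1 Scramble array and 3 siDJ-1 arrays, was called higher. That call was lost with no filter and without any 1 of the arrays other than Scramble replicate 3. Their summed signal was 1978.9, 2011.4 and 1961.0 in Scramble and 2078.8, 2181.4 and 1957.4 in siDJ-1, and Myh6 was the strongest.

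Markers of smooth muscle and fibroblasts gave 93409, 110586 and 98754 against 85600, 97914 and 73448, led by Acta2. Of 13 tested probes 5 were called lower and 3 higher, against 13.6% and 16.5% of all tested probes, with a median of -0.35. The number called lower was 2 without Scramble replicate 3, siDJ-1 replicate 1 or siDJ-1 replicate 3, 3 with no filter or the replicate block, and 8 with a trend in the prior variance. With background correction and a common 75th percentile it was 2, with a median of -0.19, and with no filter the median was -0.21. Myh11 was not detected on at least 3 arrays, and neither was Cnn1. The higher calls were all of Smtn, and the lower ones were of Acta2, Col1a1, Col3a1 and Pdgfra. The part of these lists in the light chain results was not tested.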

How the data were processed

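Total RNA of 3 Scramble and 3 siDJ-1 samples was labelled with biotin by the authors and hybridised to an Illumina mouse whole-genome BeadChip. The deposited intensity values are the mean over the beads of each probe, with no normalization. The deposited detection p-value of each probe compares it with the array's negative controls. Bead numbers and the standard error over beads were also deposited. Groups and columns were matched by sample title, and 0 sample columns were left over.

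In R 4.3.3 with limma 3.58.1, neqc was run (normexp background correction with controls inferred from the detection p-values, offset 16, quantile normalization, log2). Probes with a detection p-value under 0.05 on at least 3 of 6 arrays were fitted with lmFit and eBayes. Adjustment of p-values followed Benjamini and Hochberg across the 17890 tested probes, the threshold was 0.05, and intervals are 95% confidence intervals. Single values also got a 2-sided exact permutation test over arrays. Only the fit and the adjustment of p-values were tested on simulated data, which were built from normalized values. Background correction, scaling and changes as small as those of most member probes were not covered. The number of arrays limits the precision.

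Genes were named through RefSeq (GRCm38.p6) by Entrez number or accession (32345 of 45281 probes matched), otherwise by the file's name. Promoter windows came from RefSeq, same build. All member probes and Park7 are named, and from related lists any gene with a tested probe could be named, though not all are. For likeness, the 5 probes of other genes best correlated with the member probe of largest fitted change were taken. Lists were light chains by type, other light chains, light chain kinases and calmodulin, myosin phosphatase, heavy chains, myogenic and MEF2 factors, and markers of myotubes, cycling myoblasts, heart, and smooth muscle and fibroblasts. Members and lists were chosen with earlier results of these data known. Some results of the list of light chain kinases and calmodulin are not reported, so no count or median of that list is given.

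The 13 alternatives were quantile normalization of uncorrected signals (floored at 1), arrays shifted to 1 shared 75th percentile (from corrected and from uncorrected signals), every probe kept, only probes detected under 0.01 on all 6 arrays kept, a trend in the prior variance, the replicate number as a block, and each array left out in turn. No source used here says whether samples with the same replicate number were paired. The main fit has no block, and a fit with one is among the alternatives.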

Additional observations from a re-analysis of the deposited data

How the results depend on the processing

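Park7 and 4 member probes (Myl1 ILMN_2694907, Myl6b, Mylk2 ILMN_2506245 and ILMN_2506244) kept direction and call under all 13 alternatives. Over the 14 tested member probes, 126 values kept direction and call, 36 lost the call, 9 gained it and 7 changed sign. No alternative called a member higher.

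With background correction and a common 75th percentile, 5 member probes were called lower and 3 changes turned positive, Myl1 ILMN_2878542 at 0.246 and Mylpf at 0.050 (ILMN_2977331) and 0.045 (ILMN_2745496). Calls were lost for Myl4 (-0.121), Myl6 ILMN_2900910 (-0.156) and Myl9 (-0.331 and -0.430). Without background correction the same shift gave 0.188 for Myl1 ILMN_2878542, a member median of -0.290, no call for Myl4 (-0.177), Myl6 ILMN_2900910 (-0.211) and Mylk2 ILMN_1257739 (-0.223), and a call for Myl2 (-0.404). Quantile normalization without background correction called Myl2 (-0.462) and Myl6 ILMN_2775660 (-0.263). The causes were not tested.

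The fitted change is the same where only the filter, the variance model or the block differs. With no filter, 45281 probes were tested, 1908 were called higher and 1611 lower, with 4 members lower; Myl4 (-0.404), Myl6 ILMN_2900910 (-0.329), Myl9 (-0.448 and -0.488) and Mylk2 ILMN_1257739 (-0.774) lost the call. A stricter filter called Myl2 (-0.493), and left out Mylk2 ILMN_1257739. A trend in the prior variance called Myl2 (-0.493), Myl6 ILMN_2775660 (-0.265) and Mylpf (-0.194 and -0.206).

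Same-numbered samples hardly deviated together (correlations of 0.054, 0.047 and 0.020), although each sample correlated best with its own number. The replicate block gave 4350 calls, 6 members lower, and no call for Myl4 (-0.404), Myl6 ILMN_2900910 (-0.329) and Myl9 ILMN_2652458 (-0.488); no other member call changed.

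With each array left out in turn, 1257 to 2894 probes were called higher and 1187 to 2408 lower, fewest without siDJ-1 replicate 1 (2444 in all) and without siDJ-1 replicate 3 (2612); 4 to 8 members were called lower and their median was -0.519 to -0.393. Ranges were -0.066 to 0.021 for Myl1 ILMN_2878542, -0.616 to -0.324 for Myl2, -0.472 to -0.349 for Myl4, -0.363 to -0.291 for Myl6 ILMN_2900910, -0.519 to -0.391 and -0.627 to -0.367 for Myl9, and -0.797 to -0.704 for Mylk2 ILMN_1257739, which could not be tested without a Scramble array. Depth is not defined for arrays; Myl3, Myl7 and 1 Mylk2 probe were not above background, and near it a fold change depends on the background correction.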
